A study of Ovis aries with 6 samples.

Results

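The intelectin and gastrokine probes of a 1-colour (Cy3) Agilent sheep array were described in the skin of 2 sheep breeds. They comprised 5 probes for 3 gene names, out of 15008 non-control probes: A_70_P024271 for ITLN2, A_70_P030001 for LOC100125357, and A_70_P030186, A_70_P030187 and A_70_P018651 for GKN1, which is also called AMP18. These probes were picked for their difference between the breeds on the same 6 arrays, so that difference is given below as a description, without a test. Full-thickness body side skin was taken from 3 sheep of the Aohan fine wool breed and 3 of the small tail Han breed, all penned, normally reared and aged 12 months, with 1 array per animal. Aohan sheep grow fine wool, whereas the small tail Han breed grows coarse wool. Each breed was represented by 1 ram and 2 ewes by the same sire, and which of the 3 arrays belongs to the ram is not given. The array files of each breed also carry a scan time of their own, so breed, sire and scan session cannot be told apart, and the spread given below is that between animals sharing a sire.

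Intelectins are secreted lectins, proteins that bind sugars, and they recognise glycans found on microbial surfaces. They are released mainly by mucous cells of the gut and airways, and intelectin 2 of sheep is known from the abomasum, the glandular stomach, where it increases during infection with parasitic roundworms. Gastrokine 1 is a small protein secreted by the surface mucous cells of the stomach and is abundant in gastric mucus. Neither family is known as a product typical of skin.

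The names of the 3 genes were settled only in part. The reference annotation of the sheep genome (ARS-UI_Ramb_v3.0) holds 3 intelectin genes next to each other, namely ITLN, LOC101122151 and LOC100125357, and lists ITLN2 as a synonym of both LOC101122151 and LOC100125357. Only LOC100125357 was matched by a RefSeq accession on the array, that of A_70_P030001. The ITLN2 probe carries an accession that the reference annotation does not list, and the annotation used in the study ties it to the same gene entry as LOC100125357. Both probes may therefore measure the same gene or near-identical neighbours, and their sharing of transcripts was not tested. Of the GKN1 probes, A_70_P030186 and A_70_P030187 were matched by RefSeq accession, whereas A_70_P018651 has its name only from the study's annotation of a sequenced fragment of abomasal mucosa. In the annotation GKN1 lies between ANTXR1 and GKN2, the gene of gastrokine 2, for which no named probe was found.

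ITLN2 was the gene that differed most. Its processed signal, the background-subtracted intensity of the spot, was 13.4, 68.3 and 25.6 in the Aohan fine wool sheep, against 827, 734 and 809 in the small tail Han sheep. All 3 small tail Han sheep were high and close together, all 3 Aohan sheep were low, and the breeds did not overlap. The spot was well above background, a mark of the extraction software, on 2 of 3 Aohan arrays (not on that of replicate 1) and on 3 of 3 small tail Han arrays. The error that the software's own model assigned to the spot was 54.2%, 11.2% and 21.3% of the signal in Aohan sheep, against 10.0%, 10.1% and 10.0% in small tail Han sheep. Before any background was subtracted, the median pixel of the spot was 1.86, 2.74 and 2.11 times that of its local background in Aohan sheep and 17.3, 15.6 and 17.4 times in small tail Han sheep. The spot was thus a faint one on the Aohan arrays and a clear one on the small tail Han arrays, also in the pixel values from which the signal was made.

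**Figure D1:**
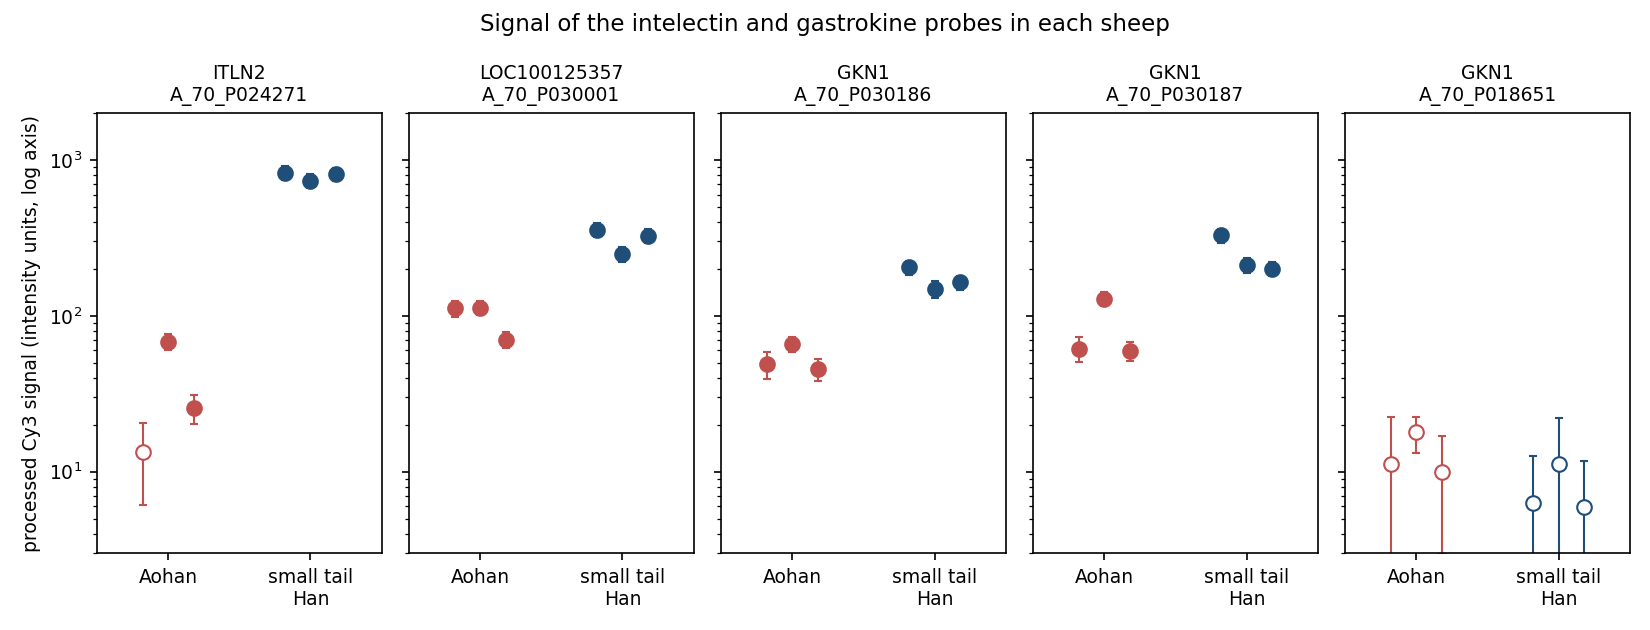
Processed Cy3 signal (intensity units, log axis) of the 5 intelectin and gastrokine probes in each Aohan fine wool sheep (red, left in each panel) and each small tail Han sheep (blue, right), replicates 1 to 3 in order; bars are the error of the extraction software's model, filled points were well above background and open points were not. All 3 Aohan points lie below all 3 small tail Han points at the first 4 probes, with ITLN2 between 13.4 and 68.3 in Aohan sheep and between 734 and 827 in small tail Han sheep, and A_70_P018651 is open throughout.

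To compare arrays, each was scaled by subtracting the 75th percentile of its log2 probe signals, so that a value of 0 stands for that percentile. On this scale, with RNA taken from whole skin so that fewer cells of a type and less RNA per cell cannot be told apart, ITLN2 stood at -6.37, -4.91 and -5.46 in Aohan sheep, against -1.48, -1.32 and -1.11 in small tail Han sheep. The breed means were -5.58 ± 0.74 and -1.30 ± 0.19 (SD, n = 3 each), a log2 change of -4.27 (SE 0.34), which is 19.3-fold lower in Aohan sheep. Each SE of a change is that of the limma fit, which also draws on the spread of other probes. From a probe's own values alone the SE was larger for ITLN2 (0.44) and LOC100125357 (0.30). It was smaller for A_70_P030186 (0.15) and A_70_P030187 (0.13). The gap between the highest Aohan value and the lowest small tail Han value was 3.43. Of the 12480 probes with enough signal to be tested, 2 fell by more. The 3 Aohan sheep differed among themselves more than the small tail Han sheep did at this probe: 5.55% of tested probes had a larger SD in Aohan sheep, and 63.5% had a larger SD in small tail Han sheep.

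How far ITLN2 lay below its small tail Han level depended on how faint signals were treated. With Aohan replicate 1 placed at the lowest signal that was well above background on its array, 26.2, the log2 change was -3.95. With normexp, a background model that keeps faint signals from approaching 0 and here adds an offset of 50, the log2 change was -2.54, 5.82-fold lower. The order within the Aohan sheep also turned with normexp, where replicate 2 was lowest (-3.92, against -3.57 and -3.52 for replicates 1 and 3), while the breeds remained apart, with small tail Han sheep at -1.18, -1.21 and -1.01. Without any 1 of the 6 animals the log2 change ran from -4.61 to -3.88.

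LOC100125357, the intelectin gene with a RefSeq match, was lower in Aohan sheep by a smaller amount. The processed signal of A_70_P030001 was 111, 113 and 70.1 in Aohan sheep, against 358, 248 and 326 in small tail Han sheep, and it was well above background on all 6 arrays. After scaling it was -3.31, -4.18 and -4.01 in Aohan sheep and -2.69, -2.89 and -2.42 in small tail Han sheep. The breeds did not overlap, but only 0.42 separated the nearest animals, Aohan replicate 1 and small tail Han replicate 2. The means were -3.83 ± 0.46 in Aohan sheep and -2.67 ± 0.23 in small tail Han sheep (SD, n = 3 each), a log2 change of -1.17 (SE 0.26), 2.24-fold lower. With normexp the change was -0.70 and the breeds overlapped, since Aohan replicate 1 (-2.45) lay above small tail Han replicate 2 (-2.51). Both intelectin probes were thus lower in Aohan sheep, and their log2 changes differed by -3.11 (ITLN2 minus LOC100125357).

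The intelectin probes did not share their variation within the Aohan breed on the reported scale. Replicate 1 had the lowest ITLN2 value and the highest LOC100125357 value of the 3 Aohan sheep, and replicate 2 had the highest ITLN2 value and the lowest LOC100125357 value. Over all 6 arrays, which share the breed difference, Pearson's r between the probes was 0.80, and with each breed's mean removed it was -0.78. These are descriptions over few related animals, and the first order turned with normexp as given above.

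GKN1 was lower in Aohan sheep at both of its measurable probes. The signal of A_70_P030186 was 48.9, 65.6 and 45.7 in Aohan sheep, against 204, 149 and 164 in small tail Han sheep. That of A_70_P030187 was 61.6, 128 and 59.6 in Aohan sheep, against 328, 211 and 200.2 in small tail Han sheep. Both probes were well above background on all 6 arrays, and at both the small tail Han sheep were the 3 high animals, with no overlap. Scaled, A_70_P030186 was -4.50, -4.96 and -4.63 in Aohan sheep and -3.50, -3.63 and -3.42 in small tail Han sheep, with means of -4.70 ± 0.24 and -3.51 ± 0.11 (SD, n = 3 each). A_70_P030187 was -4.16, -4.00 and -4.25 in Aohan sheep and -2.82, -3.12 and -3.13 in small tail Han sheep, with means of -4.13 ± 0.13 and -3.02 ± 0.18 (SD, n = 3 each). No Aohan sheep reached the range of the small tail Han sheep at either probe, and the nearest animals lay 0.87 apart. The log2 change was -1.18 (SE 0.22) at A_70_P030186, 2.27-fold lower, and -1.11 (SE 0.20) at A_70_P030187, 2.16-fold lower. The changes of these probes of the same transcript differed by -0.07 (A_70_P030186 minus A_70_P030187), less than either SE.

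The distance between the GKN1 probes varied from animal to animal by more than its mean differed between the breeds. A_70_P030187 exceeded A_70_P030186 by 0.33, 0.97 and 0.38 in Aohan sheep and by 0.68, 0.51 and 0.29 in small tail Han sheep, means of 0.56 ± 0.35 and 0.49 ± 0.20 (SD, n = 3 each). With each breed's mean removed, r between the probes was -0.40, over 6 arrays. This distance is not a level, because probes bind with different strength. The change at A_70_P030187 moved with the surface correction of the extraction software, which multiplied its signal by 1.17 to 1.21 on the Aohan arrays and by 1.09 on that of small tail Han replicate 1. This correction was not applied to small tail Han replicates 2 and 3, and before it the change was -1.30. The change at LOC100125357 moved the other way with the correction, from -0.996 before it to -1.17 as reported. With normexp the changes were -0.65 at A_70_P030186 and -0.81 at A_70_P030187, and the breeds did not overlap at either.

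A_70_P018651, the other probe given the GKN1 name, gave no usable level. On none of the 6 arrays did it reach the mark for well above background. Its signal was 11.3, 17.9 and 9.96 in Aohan sheep, against 6.34, 11.2 and 5.94 in small tail Han sheep, with model errors of 98.4%, 25.9% and 70.2% of the signal in Aohan sheep and 98.3%, 98.3% and 98.4% in small tail Han sheep. The weaker mark of a signal significantly above 0 was set only on the arrays of Aohan replicates 2 and 3. The breeds overlapped in this unscaled signal. After scaling the values were -6.61, -6.84 and -6.83 in Aohan sheep, against -8.51, -7.36 and -8.20 in small tail Han sheep. Every Aohan value was then the higher, but none of the spots was well above background. No fold is given, and the fall seen at the other GKN1 probes could not be examined at this probe.

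**Figure D2:**
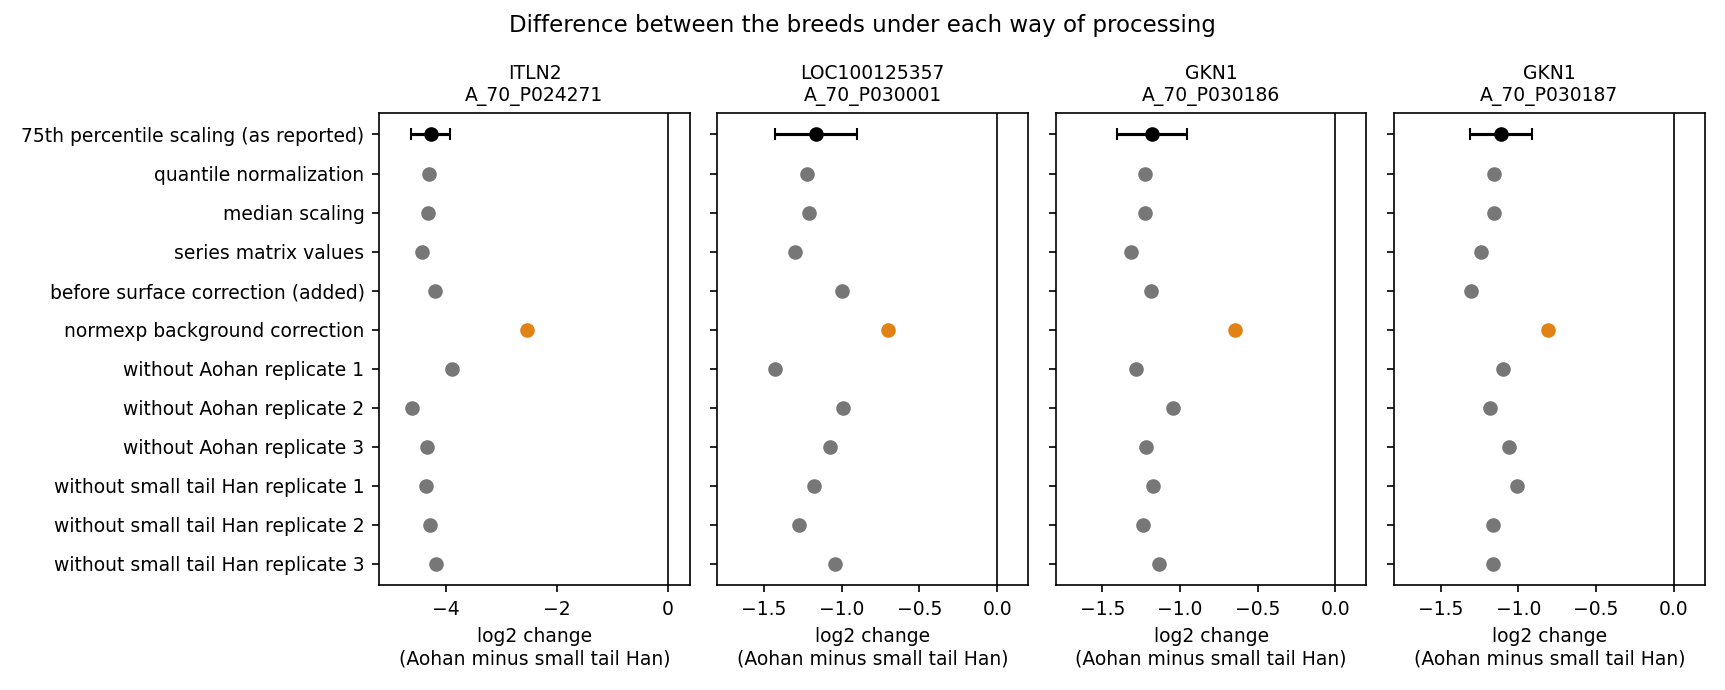
Difference in mean log2 signal (Aohan minus small tail Han) at the 4 tested intelectin and gastrokine probes under each way of processing (black, as reported, with its SE; orange, normexp; grey, all others; horizontal ranges differ between panels). Every point lies left of 0, and the normexp points are nearest to 0, at -2.54 for ITLN2, -0.70 for LOC100125357, and -0.65 and -0.81 for GKN1.

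Against the whole array, the changes of the 4 measurable probes are given as a description only, since the probes were picked on this contrast. All 4 had every Aohan value below every small tail Han value, as did 16.4% of all tested probes, and nothing is read from this count. For comparison, 7.60% of all tested probes were lower and 7.57% were higher in Aohan sheep at an adjusted p under 0.05 (limma with Benjamini-Hochberg adjustment over all tested probes), and these shares are the background for the gene lists below. The median change of the 4 probes was -1.17, against 0.02 over all tested probes. The place of LOC100125357 and GKN1 among all changes was less extreme than that of ITLN2: 4.27% of tested probes fell more than LOC100125357, and 4.16% and 4.59% more than the 2 GKN1 probes. The detection pattern of ITLN2, well above background on all small tail Han arrays and on at most 2 Aohan arrays, was shared by 6.05% of tested probes, and the reverse pattern by 3.06%.

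The arrays differed in overall signal and in background. The 75th percentile of signal was 1103, 2048 and 1131 on the Aohan arrays, against 2309, 1837 and 1747 on the small tail Han arrays. Between 10730 and 13384 probes were well above background on the Aohan arrays and between 11052 and 12962 on the small tail Han arrays. The median local background was 44.5 to 45.5 on the Aohan arrays and 51 to 55 on the small tail Han arrays, so it moved with the breed, and its part in the changes was not tested. No spot was saturated, and correlations between arrays were 0.957 to 0.991.

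The tissue carried the marks of skin in both breeds. Of 40 listed skin genes, 7 had a named probe, among them the hair keratins KRT35 and V15, the inner root sheath keratins KRT25 and KRT27, the dermal proteoglycan gene DCN and the pigment enzyme gene TYR. All 7 were well above background on all 6 arrays and 0 passed between breeds in limma or in the methods' t-test after adjustment (1 at an unadjusted p under 0.05), with summed levels of 808 to 1414 in Aohan sheep and 944 to 1283 in small tail Han sheep, in multiples of each array's 75th percentile. Of 14 listed gland and milk genes, 8 had a named probe and 1 of 6 tested passed at its brightest probe. This was LTF, the iron-binding lactoferrin of milk and other secretions, with a log2 change of 2.64 (SE 0.24, limma adjusted p = 0.000201). At its second probe, which is dimmer, the casein gene CSN2 was also higher, by 4.86 (adjusted p = 0.00177), with 3 Aohan arrays and 1 small tail Han array well above background, while its brighter probe stood at 0.06 (adjusted p = 0.934). Summed over the brightest probes, the levels of the 8 genes were 3.59 to 4.85 in Aohan sheep and 2.15 to 2.61 in small tail Han sheep, which did not overlap, and the part of such gland genes in the intelectin and gastrokine changes was not tested.

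The few listed stomach and gut genes that could be tested went both ways. No mucin gene had a named probe, so the mucous genes as a group were not measured. Of 46 listed mucosal secretory genes, 7 had a named probe, 5 were tested, 2 were higher and 1 was lower in Aohan sheep, and the median change was 0.75, against 0.02 over all tested probes. This median is the value of CYM alone. With 1 animal left out the median ran from 0.34 (without Aohan replicate 1) to 1.38 (without small tail Han replicate 1). It was 0.18 with normexp, and 1.83 over the 3 genes well above background on all 6 arrays. The 2 that were higher were LYZ, the antibacterial enzyme lysozyme, with a change of 2.44 (SE 0.43, limma adjusted p = 0.00730), and SLC5A1, the intestinal sodium and glucose transporter, with 1.83 (SE 0.28, adjusted p = 0.00379). LGALS15, a secreted galectin known in sheep from the uterus and from the parasitised gut, was lower by a log2 change of -1.10 (SE 0.25, adjusted p = 0.0208). The gastric genes CYM (chymosin) and SST (somatostatin) were well above background on some arrays of each breed and did not pass, with changes of 0.75 (adjusted p = 0.642) and 0.47 (adjusted p = 0.359). The second probes of LYZ, SLC5A1 and LGALS15 also passed, at 2.88, 1.41 and -1.43. Summed levels of the 7 genes were 0.919 to 1.16 in Aohan sheep and 0.925 to 1.16 in small tail Han sheep. The brightest of them were LGALS15, which was lower, and LYZ and SLC5A1, which were higher, so like sums do not mean unchanged genes. No named probe was found for TFF1, TFF2 or GKN2, the usual companions of GKN1 in gastric mucus. None of the calls in this list passed the methods' t-test after adjustment, and LGALS15 did not pass without Aohan replicate 3 or small tail Han replicate 2 or 3.

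Further genes of the mucosal list, TFF3, GCG and LOC443321, were named only in the study's annotation of probes that it had selected on the same contrast, so they are described without a test. TFF3, the trefoil peptide of goblet cells, was -5.66, -5.73 and -6.07 on the scaled log2 signal in Aohan sheep, against -3.81, -4.06 and -3.95 in small tail Han sheep. It was well above background on 1 of 3 Aohan arrays and 3 of 3 small tail Han arrays, with a log2 change of -1.88 (SE 0.26). TFF3 shared with ITLN2 the direction and the lack of overlap, which 16.4% of tested probes had. It also shared the pattern of detection on all small tail Han but not all Aohan arrays, which 6.05% of tested probes had. GCG, which encodes the glucagon precursor, was named in the same way and changed by -1.07 (SE 0.23), with 2 of 3 Aohan arrays well above background. LOC443321 went the other way: it was -1.50, -1.27 and -1.50 in Aohan sheep, against -4.63, -4.10 and -3.55 in small tail Han sheep, a change of 2.67 (SE 0.27).

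**Figure D3:**
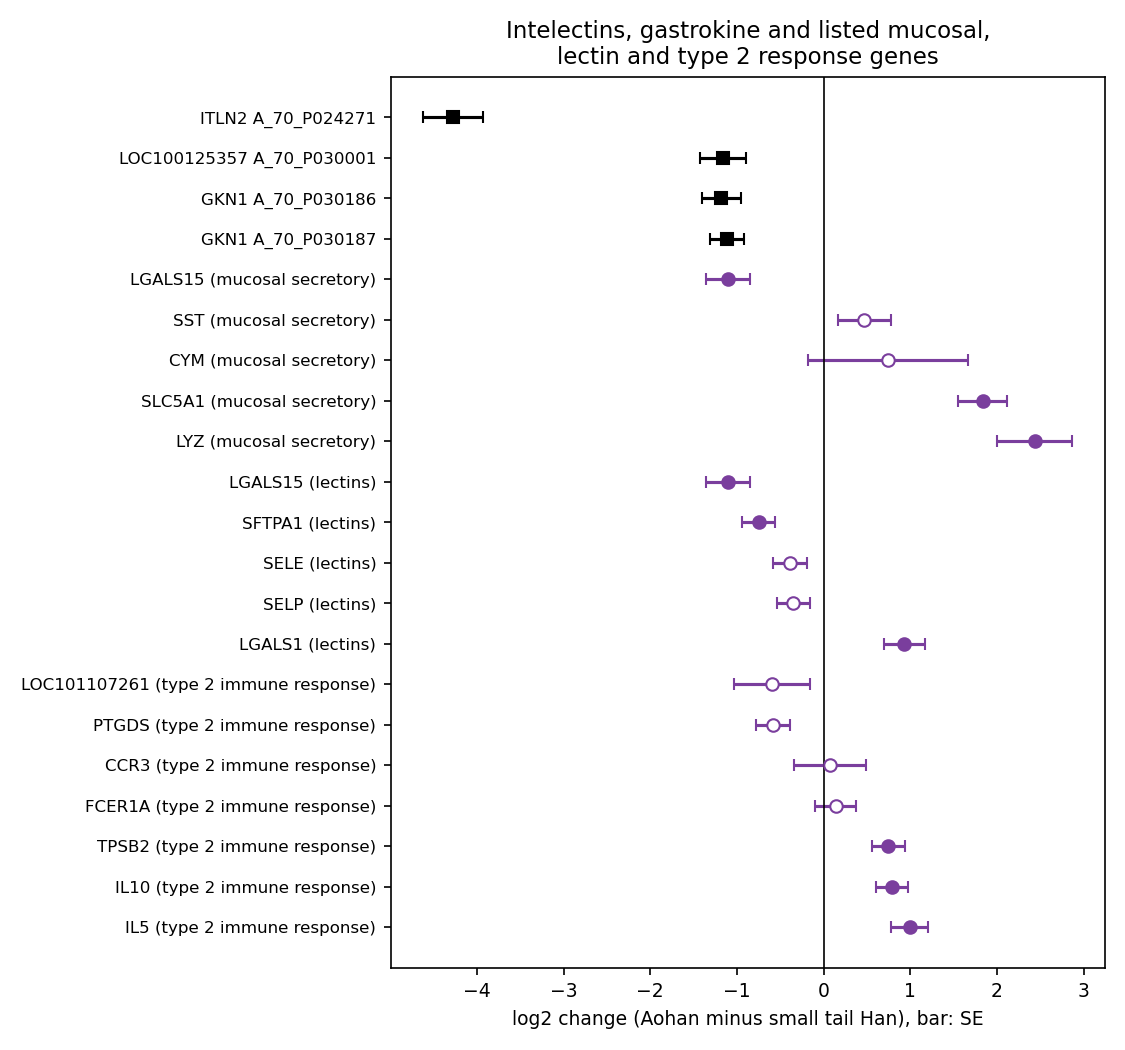
Log2 change (Aohan minus small tail Han) and its SE for the 4 tested intelectin and gastrokine probes (black squares, described without a test) and for the tested genes of the mucosal secretory, lectin and type 2 response lists at 1 probe per gene (circles, filled where limma's adjusted p was under 0.05). The intelectin and gastrokine points lie at -4.27 to -1.11, and the circles fall on both sides of 0, with LGALS15 lowest at -1.10 and LYZ highest at 2.44.

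Other sugar-binding proteins went both ways. Of 39 listed lectins and soluble recognition molecules, 5 had a named probe and all were tested. LGALS1, a galectin of connective tissue, was higher in Aohan sheep (0.93, SE 0.24, limma adjusted p = 0.0312), whereas LGALS15 and SFTPA1, the surfactant collectin that binds microbial sugars, were lower, the second by -0.75 (SE 0.20, adjusted p = 0.0341). The endothelial selectins SELE and SELP did not pass, at -0.39 (adjusted p = 0.229) and -0.35 (adjusted p = 0.255). The median change was -0.39 over these 5 genes, or -0.19 with normexp. Their summed levels, of which LGALS1 was the brightest, were 49.9 to 83.7 in Aohan sheep and 32.2 to 39.1 in small tail Han sheep, without overlap. Second probes did not pass for SFTPA1, at -0.16 (adjusted p = 0.753), or for LGALS1, at 0.45 (adjusted p = 0.123). With normexp neither LGALS1 nor SFTPA1 passed (adjusted p = 0.155 and 0.362). LGALS1 also did not pass without Aohan replicate 1 or 3 or any 1 small tail Han animal (adjusted p up to 0.13), nor SFTPA1 without replicate 2 or 3 of either breed (adjusted p up to 0.129).

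The type 2 immune response is the response to parasites and allergens during which intelectins increase in gut and airway. At the brightest probe of each gene, all of its genes that passed in limma were higher in Aohan sheep. Only a second probe of CCR3 passed as lower. Of 39 listed genes, 9 had a named probe, 7 were tested, 3 were higher and 0 were lower (1 lower at an unadjusted p under 0.05, and 0 passing the methods' t-test after adjustment), with a median change of 0.14, or -0.06 to 0.53 when 1 animal was left out. IL5, the growth factor of eosinophils, was higher by 0.99 (SE 0.21, limma adjusted p = 0.0162). The regulatory cytokine gene IL10 was higher by 0.79 (SE 0.18, adjusted p = 0.0222) and TPSB2, a mast cell tryptase, by 0.75 (SE 0.19, adjusted p = 0.0334). CCR3, the eotaxin receptor of eosinophils, differed between its probes: the brighter, which was counted, stood at 0.07 (adjusted p = 0.934), whereas A_70_P051117, well above background on all 6 arrays, was lower by -0.89 (adjusted p = 0.0327). Second probes of the other named genes gave 0.79 for IL10 (adjusted p = 0.0327) and 0.49 for TPSB2 (adjusted p = 0.147). That of IL5 was well above background on 0 arrays and was not tested, so the IL5 call rests on 1 probe. PTGDS, a prostaglandin D2 synthase, did not pass, at -0.59 (adjusted p = 0.0829). It was the brightest of the 9 genes, and their summed levels ran opposite to the 3 higher calls. These levels were 14.4 to 16.4 in Aohan sheep and 17.5 to 26.9 in small tail Han sheep, without overlap. IL4 and IL13, the cytokines at the head of this response, were named after their values were seen: IL4 was well above background on 0 arrays, and IL13 on 1. TPSB2 failed to pass under normexp (adjusted p = 0.472), without an intensity trend (adjusted p = 0.0618), when any 1 Aohan animal was left out (adjusted p up to 0.0823) and when small tail Han replicate 2 was (adjusted p = 0.141), and IL10 did not pass without Aohan replicate 3 (adjusted p = 0.0891) or small tail Han replicate 2 (adjusted p = 0.0934). IL5 passed every setting tried except the methods' t-test after adjustment (adjusted p = 0.0937).

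The named genes whose signal followed ITLN2 most closely over the 6 arrays, out of 423 candidates, were PYGB, SLC2A5, PYGM, POMC and DBP. PYGB and PYGM encode glycogen phosphorylases, SLC2A5 a fructose transporter and POMC the precursor of the melanocortins. Pearson's r was 0.998, 0.996, 0.992, 0.991 and 0.989 in that order, all 5 were lower in Aohan sheep, and the breed difference enters each r. With each breed's mean removed r was 0.96 for PYGB, 0.96 for SLC2A5, 0.79 for PYGM, 0.97 for POMC and 0.93 for DBP. These values rest in part on faint spots. The ITLN2 spot of Aohan replicate 1 was not well above background, and the SLC2A5 probe was so marked on only 2 Aohan arrays. The order of the Aohan sheep at ITLN2 also turned with normexp, and r was not computed on that scale. PYGB was -1.99, -1.68 and -1.72 in Aohan sheep and -0.94, -0.93 and -0.90 in small tail Han sheep. Its lowest animal was Aohan replicate 1, which was also lowest for ITLN2 on the reported scale but not with normexp.

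For LOC100125357 the closest named genes were different ones. They were SFTPA1 (r = 0.989), LGALS15 (0.980), PRLH (0.979), SC5 (0.973) and IRAK4 (0.971), of which PRLH encodes prolactin-releasing peptide and IRAK4 a kinase of Toll-like receptor signalling. Aohan replicate 1 was the highest Aohan animal for SFTPA1 (-3.15, against -3.66 and -3.45 in replicates 2 and 3), as it was for LOC100125357. For GKN1, taken as the mean of A_70_P030186 and A_70_P030187, they were POMC (0.991), CYP1A1 (0.985), RHOBTB2 (0.981), CD1D (0.976) and TAC1 (0.973). CYP1A1 encodes an enzyme that oxidises foreign compounds, CD1D presents lipids to T cells and TAC1 is the precursor of substance P. With each breed's mean removed r was 0.62 for POMC, 0.00 for CYP1A1, 0.26 for RHOBTB2, -0.13 for CD1D and 0.78 for TAC1. CYP1A1 and CD1D thus resembled GKN1 in the breed difference only. The averaged GKN1 probes had r = -0.40 with each other on this measure, so their mean is a weak guide within breeds.

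**Figure D4:**
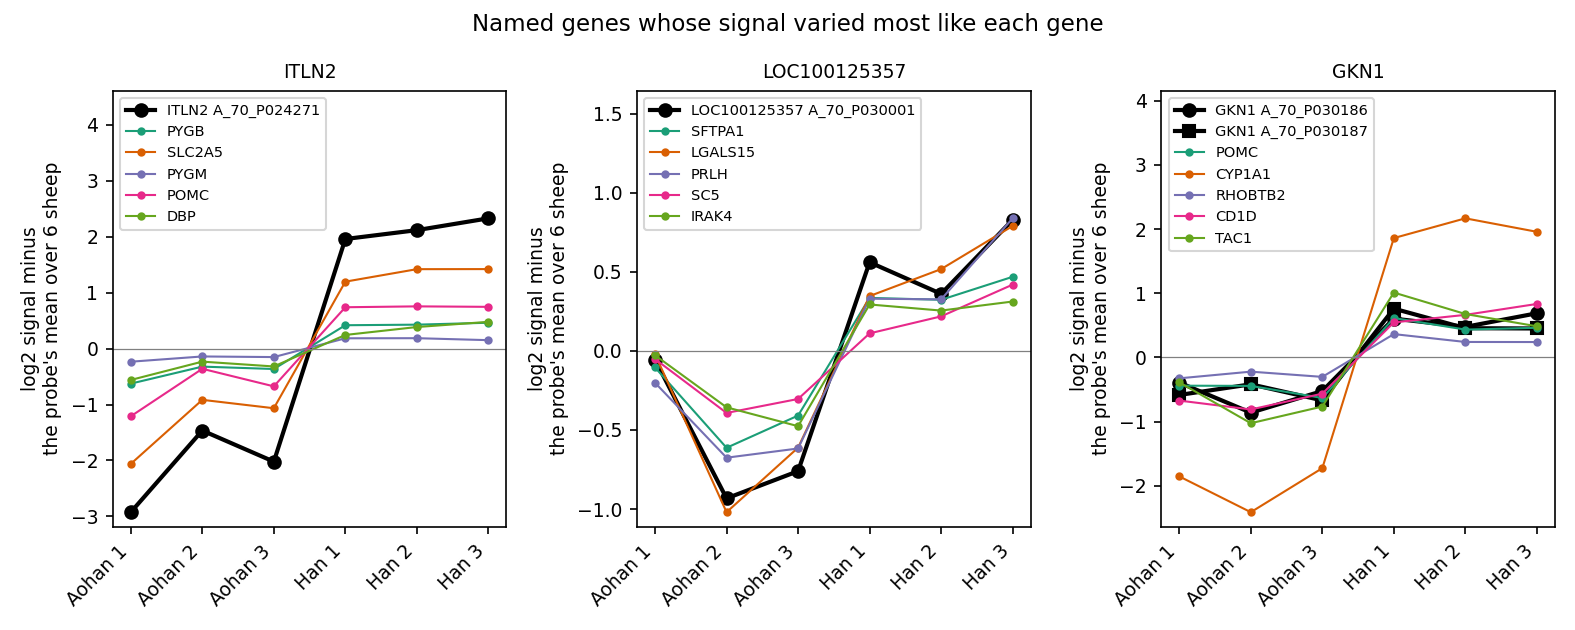
Scaled log2 signal minus the probe's mean over the 6 sheep, for ITLN2, LOC100125357 and both measurable GKN1 probes (black) and the 5 named genes closest to each by Pearson's r (colours), in Aohan sheep (left) and small tail Han sheep (right, marked Han); lines only join the points of a gene. Aohan replicate 1 is the lowest animal in the ITLN2 panel and the highest Aohan animal for LOC100125357, and all Aohan points lie below 0.

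The named array genes nearest to each gene on the chromosome lay far off. Before the intelectin genes the nearest was SLAMF1, an immune cell receptor gene with 10 coding genes in between, with a change of 0.38 (SE 0.25, limma adjusted p = 0.348). After them it was FCGR2B, an antibody receptor gene with 26 coding genes in between, which was not tested, because its spots on the arrays of Aohan replicates 1 and 2 carried outlier marks and only 1 Aohan value remained. Next to GKN1 the nearest named genes were POMC, with 88 coding genes in between, and LOC654331, with 47. POMC was lower at both probes, at -1.01 (SE 0.17, adjusted p = 0.00516) and -1.50 (SE 0.23, adjusted p = 0.00355), and LOC654331 did not pass, at -0.40 (adjusted p = 0.155). No neighbour close enough to share the position of ITLN2 or GKN1 was measured under its own name.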

How the data were processed

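Total RNA of 6 skin samples was labelled with Cy3 and hybridised to 6 arrays of 15744 spots. The deposited intensity values per spot, per the file headers, are background-subtracted Cy3 signals that the authors made with Agilent Feature Extraction 10.5.1.1, with no normalization between arrays, together with 0 or 1 marks for detection, saturation and outliers. The paper's methods name an earlier version of this software. A multiplicative surface correction was applied to 4 of the 6 arrays. In the deposited series matrix the values are log2 signals made comparable between arrays by the authors. The method is not named in the sources used here. All 6 columns share a median of 8.31 and an upper quartile of 11.00, as quantile normalization would give.

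Control spots and outlier spots were dropped (120 probes had outlier marks), spots of a probe were averaged, and the 75th percentile of log2 signal was subtracted per array. Probes were tested if well above background on 3 or more arrays and with 2 or more values per breed, using limma 3.58.1 in R 4.3.3 (two-sided, intensity trend, Benjamini-Hochberg, adjusted p under 0.05). All 5 intelectin and gastrokine probes had 1 spot per array, with no outlier mark. P-values measure the spread between animals sharing a sire. With 3 arrays per breed, the precision of each difference is limited.

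The members and gene lists were chosen with earlier results of these data known. The genes named were the 5 probes, up to 4 genes of smallest p per list, LTF and the partners of gastrokine, the nearest named array genes on the chromosome, and the 5 named genes closest by Pearson's r. Of 758 probes with a RefSeq accession 734 were named through RefSeq, giving 476 symbols, and a gene was represented by its brightest probe. Normexp used spot and background medians. Alternatives were quantile and median scaling, normexp, the series matrix, other filters, no trend, outlier spots kept, a replicate block, the methods' t-test and leaving out each animal. The signal before surface correction and the placement of ITLN2 at the detection limit were added after the data were seen. The limma step was tested on simulated data. Protein data and sequences of the probes were not used here.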

Additional observations from a re-analysis of the deposited data

How the results depend on the processing

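No alternative turned the direction of the 4 tested intelectin and gastrokine probes. Over all alternatives the log2 change (Aohan minus small tail Han) ran from -4.61 to -2.54 at ITLN2, from -1.43 to -0.70 at LOC100125357, from -1.32 to -0.65 at A_70_P030186 and from -1.30 to -0.81 at A_70_P030187. The values nearest to 0 came from normexp (-2.54, -0.70, -0.65 and -0.81), which also gave 0.19 for A_70_P018651. That probe was well above background on 0 arrays, so its nominal difference of 1.26 is one of values below detection and measures no change. The value of -1.30 came from the signal before surface correction, an alternative added after the data were seen. Leaving out 1 animal gave -4.61 to -3.88 at ITLN2, -1.43 to -0.99 at LOC100125357, -1.28 to -1.05 at A_70_P030186, -1.18 to -1.01 at A_70_P030187 and 1.02 to 1.59 at A_70_P018651.

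Over all probes, 945 were higher and 948 lower. Leaving out 1 animal gave 348 to 1230 higher and 441 to 1018 lower, lowest without small tail Han replicate 2, and without small tail Han replicate 3 the counts were 463 and 481, without Aohan replicate 3 434 and 629. The methods' t-test after adjustment called 321 and 391. The replicate numbers did not pair the animals (correlations of -0.22, -0.37 and 0.28), and with the replicate number as a block 565 were higher and 669 lower. Of the gene lists, the mucosal genes passing numbered 3, or 2 to 3 without 1 animal and 0 by the methods' t-test. The lectins passing numbered 3, or 1 with normexp, 1 with the block, 0 by the methods' t-test and 0 to 2 without 1 animal. The type 2 response genes passing numbered 3, or 1 with the block (where IL10 and TPSB2 had adjusted p = 0.0627 and 0.0819 in limma), 0 by the methods' t-test and 1 to 3 without 1 animal. The cause of these differences was not tested. ITLN2 in Aohan sheep and A_70_P018651 in both breeds lie where signal over background limits any value.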

Other observations

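PTX3 and CLEC4E, which take part in innate recognition, differed in the other direction from the intelectins. They were named only in the study's annotation of probes that it had selected on the same contrast, and they are given as values without a test. PTX3, a soluble pattern recognition protein, was -4.75, -4.58 and -4.63 on the scaled log2 signal in Aohan sheep, against -6.01, -6.54 and -5.88 in small tail Han sheep, with 3 of 3 Aohan arrays and 2 of 3 small tail Han arrays well above background. CLEC4E, a macrophage lectin receptor, changed by 1.03 (SE 0.17) and 1.23 (SE 0.17) at its 2 probes. At both genes the 3 Aohan sheep lay above the 3 small tail Han sheep, while ITLN2 and TFF3 ran the other way on the same arrays.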
